A study of Mus musculus with 20 samples.

Results

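Messenger RNA was compared between ovaries of normal female mice at 22 months and at 6 months of age, with 5 libraries in each group, 10 of the 20 libraries of the series. The libraries were chosen by their labels alone: the 22-month normal group (old) against the 6-month normal group (young). All mice came from the Ames dwarf stock, and the normal animals were heterozygous (N/df), so that each of the 10 carried 1 copy of the dwarf (df) allele. The other 10 libraries came from homozygous dwarf (df/df) females of the same ages. They enter here through the shared estimate of spread and through a test of whether the age responses differ. Ovaries were flash frozen, and each library was taken as 1 mouse. Nothing in the labels gives the stage of the oestrous cycle, so cycle stage and age cannot be told apart.

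An ovary is born with a store of oocytes, each wrapped in granulosa cells as a follicle. Follicles leave the store and grow, and most die, so the store empties with age. Granulosa cells of growing follicles divide and secrete inhibins and anti-Müllerian hormone. Theca cells around them make androgens, and after ovulation the follicle wall becomes a corpus luteum that makes progesterone. In mice the ovary lies in a bursa against the coiled oviduct, whose epithelium is made of ciliated cells and of secretory cells that produce oviductin, the product of Ovgp1.

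The library labelled normal, 6 months, replicate 2, went against its ovary label. Ovgp1 (mm10, chromosome 3, 105973802 to 105987423, plus strand) stood at 4775 CPM there (the read count of a gene scaled to the TMM library size, comparable between libraries but not between genes of different length) and at 60.0, 56.3, 9.73 and 15.8 CPM in the 4 other young libraries. Nr5a1 (chromosome 2, 38692660 to 38714542, minus strand), the transcription factor that defines steroid-producing cells of the ovary, was at 6.21 CPM, 1.15% of the mean of those 4 libraries. Amhr2, the receptor of anti-Müllerian hormone, was at 6.08% of that mean. This library is called the oviduct-rich library below, and counts of calls and changes of named genes are given with and without it. The 5 old libraries held oviduct transcripts as well, with Ovgp1 at 1549, 1313, 2197, 1664 and 3025 CPM. Over the 11 tested markers of oviduct secretory cells, the summed level was 47.8 to 1050 CPM in the 4 other young libraries, 10000 CPM in the oviduct-rich library and 2750 to 7340 CPM in the old libraries. How much oviduct was dissected with each ovary and the age of the mouse therefore cannot be told apart in these groups.

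Totals over genes ran from 1365640 to 22429386 counts in the young libraries and from 5186090 to 20266823 in the old ones. The shallowest, young replicate 3, also gave 14.8% of its counts to the ribosomal RNA gene Rn45s, against 3.09 to 10.0% in the other 9. Intervals set by such totals cover counting error only: a count of 0 allows up to 2.68 CPM in that library and up to 0.131 to 0.558 CPM in the others (3 counts). Old replicate 3 stood apart in immune genes, as given below.

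Of 16099 tested genes, 1086 (6.75%) changed at an adjusted p under 0.05 with all libraries, 419 (2.6%) higher and 667 (4.14%) lower in old ovaries. Without the oviduct-rich library, 4474 (27.8%) changed, 2556 (15.9%) higher and 1918 (11.9%) lower. All 1086 genes called with all libraries were called in the same direction without it. When the spread was estimated from the normal libraries alone, edgeR called 0 genes higher and 0 lower with all 10 of them (2111 at an unadjusted p under 0.05), and 1823 higher and 798 lower without the oviduct-rich library. Values of the 5 old libraries lay apart from those of the 5 young ones for 206 genes higher (1.28%) and 210 lower (1.3%). Against the 4 other young libraries this held for 1743 genes higher (10.8%) and 1068 lower (6.63%). Counts of list members below are read against these shares, and where leaving out 1 library moved a list's count of at least 3 by over 1.5 times, the count without that library is given. Changes are log2 fold changes of old against young ± SE, with the adjusted p (edgeR, Benjamini-Hochberg over all tested genes) in parentheses. The SE was worked back from the edgeR test, as the size of the change divided by the square root of its F statistic. It is therefore approximate, and was not estimated apart from the test. Of the 2556 genes higher without the oviduct-rich library, 2169 (84.9%) were higher in that library than in any of the 4 other young ones. Of the 1918 lower genes, 1464 (76.3%) were lower there than in any of the 4. Among genes not called the shares were 18.6% and 24%. With an oviduct score (mean log2 level of the oviduct list) added to the fit on all libraries, 0 genes rose and 3 fell by edgeR, with 2373 genes at an unadjusted p under 0.05. The 3 were Gpatch4, Slitrk3 and Twist2, named after their values were seen, with log2 changes of -0.97 ± 0.16, -2.89 ± 0.44 and -2.62 ± 0.44. Slitrk3 and Twist2 were not called without the score.

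**Figure D1:**
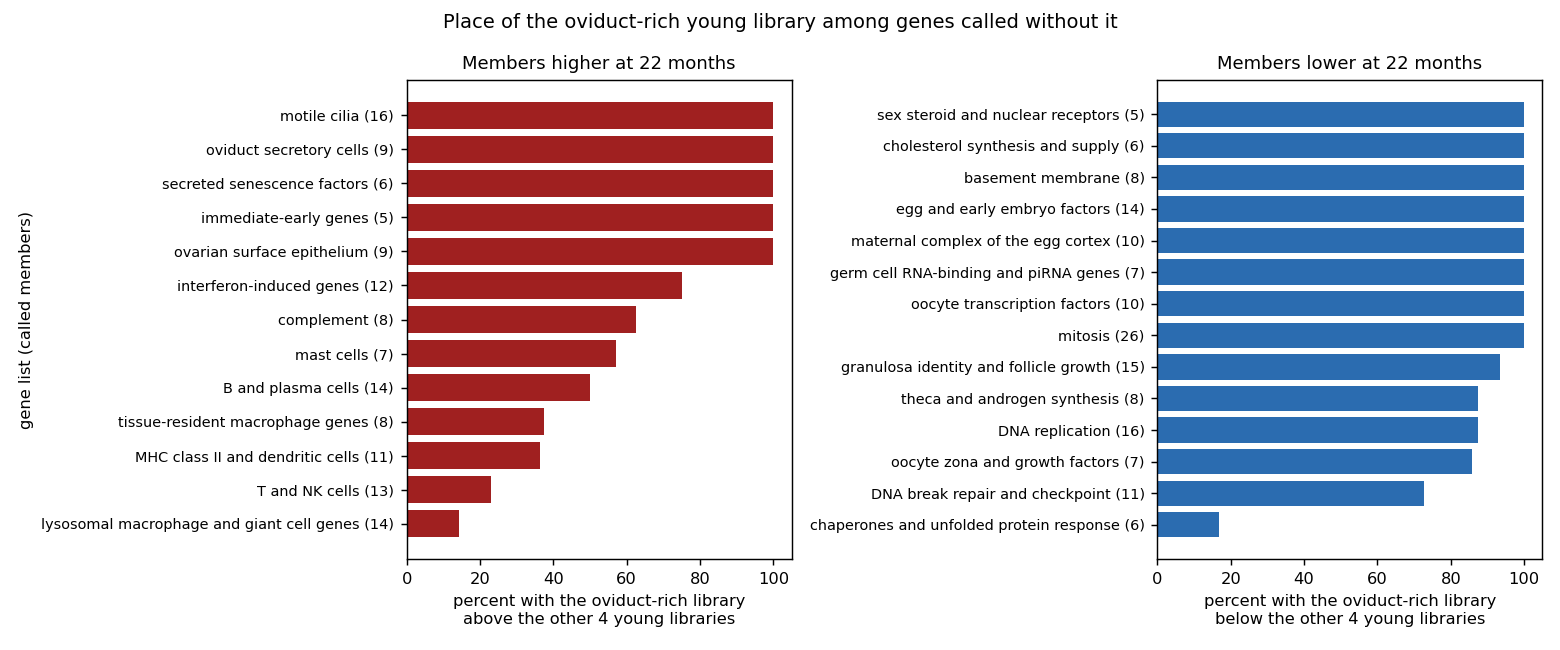
For gene lists with at least 5 members called in a direction without the oviduct-rich library, the horizontal axis gives the share (%) of those members for which the oviduct-rich library lay beyond the 4 other young libraries, above them for members higher in old ovaries and below them for members lower. Mitosis genes and the oocyte transcription factors sit at the full share, T and NK cell genes (3 of 13) and lysosomal macrophage genes (2 of 14) near the low end.

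Oocyte genes stood far lower in old ovaries. Among genes of the egg coat and oocyte growth factors, 6 of 8 tested members fell with all libraries and 7 of 8 without the oviduct-rich library, with a median log2 change of -4.11 and -4.45. All 10 tested oocyte transcription factors fell in both fits, as did all 10 tested members of the maternal complex beneath the egg membrane. Egg and early embryo factors fell in 13 and then 14 of 14 cases. With all libraries, the 10 transcription factors became 6 without old replicate 3 or young replicate 5. Over all tested genes the median log2 change was -0.017 with all libraries and -0.028 without the oviduct-rich one. In whole-tissue RNA, fewer oocytes and less RNA per oocyte cannot be told apart.

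Gdf9 (chromosome 11, 53433286 to 53437902, plus strand), which encodes a growth factor that oocytes send to granulosa cells, was at 75.5, 98.3, 118 and 122 CPM in the 4 other young libraries and at 4.56, 3.57, 3.33, 10.1 and 12.2 CPM in the old ones. The oviduct-rich library held 1.17 CPM, below every old library. Gdf9 fell, with a log2 change of -3.64 ± 0.69 (adjusted p = 0.00855) with all libraries and -3.97 ± 0.33 (1.08e-06) without the oviduct-rich one. Its partner Bmp15 stood at 14.7, 11.6, 18.9 and 29.0 CPM in the 4 other young libraries, 0.365 CPM in the oviduct-rich one and 0.198, 0.178, 0.376, 2.23 and 1.99 CPM in the old ones, and its log2 change was -4.03 ± 0.82 (adjusted p = 0.0107) with all libraries and -4.40 ± 0.59 (5.78e-05) without the oviduct-rich one. Both growth factors thus separated the old libraries from the 4 other young ones, and overlapped once the oviduct-rich library was included.

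The zona pellucida is the glycoprotein coat that sperm bind. Zp3, which encodes the sperm-binding protein of that coat, was at 57.3, 86.7, 84.0 and 89.6 CPM in the 4 other young libraries and at 2.23, 0.625, 0.878, 5.40 and 8.28 CPM in the old ones, with 0.512 CPM in the oviduct-rich library. The means differed 22.8-fold, and the log2 change was -4.21 ± 0.83 (adjusted p = 0.01) with all libraries and -4.55 ± 0.51 (1.14e-05) without the oviduct-rich one. Zp1 and Zp2 changed by a log2 of -4.31 ± 0.85 and -4.18 ± 0.88 with all libraries and by -4.63 ± 0.49 and -4.51 ± 0.64 without the oviduct-rich one. Kit, the receptor on oocytes for the Kit ligand, was the member of this list called in neither fit: it was at 32.2, 29.5, 59.6 and 42.1 CPM, 42.2 CPM and 30.6, 107, 30.9, 48.4 and 49.3 CPM in the same order, with mast cells as another known source of its RNA.

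Nobox, a homeobox factor that oocytes of the earliest follicles need, stood at 14.7, 14.3, 23.6 and 28.9 CPM in the 4 other young libraries, 0.365 CPM in the oviduct-rich one and 0.198, 0.625, 0.439, 2.05 and 1.78 CPM in the old ones. It fell, with a log2 change of -4.12 ± 0.73 (adjusted p = 0.00812) with all libraries and -4.49 ± 0.45 (3.5e-06) without the oviduct-rich one. Pou5f1 and Obox1 changed by a log2 of -4.18 ± 0.84 and -5.56 ± 1.09 with all libraries and by -4.54 ± 0.59 and -5.91 ± 0.82 without the oviduct-rich one. Figla, the factor that switches on zona genes, had no count in 3 of the 5 old libraries. It was at 1.39, 0.894, 1.14 and 1.55 CPM in the 4 other young libraries, so that the shallow young library rests on 1 count, and its log2 change was -4.11 ± 1.03 (adjusted p = 0.0234) with all libraries and -4.52 ± 0.81 (0.000628) without the oviduct-rich one. The weakest change of this list was that of Taf4b, with a log2 change of -1.65 ± 0.43 (adjusted p = 0.0288) with all libraries and -1.91 ± 0.38 (0.00141) without the oviduct-rich one. Figla lost its call with all libraries without old replicates 1, 2 or 3 or young replicates 1 or 4 (adjusted p up to 0.0711). Taf4b lost its call with all libraries without old replicates 2, 4 or 5 or young replicates 4 or 5 (adjusted p up to 0.0779).

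Promoters of a zona gene and of Nobox are shown because E-boxes, the CANNTG element to which basic helix-loop-helix factors such as Figla bind, were looked for in the genes that fell together. The letters are the 250 bases upstream of the start in RefSeq (GRCm38.p6), 5′ to 3′ on the gene's strand, with E-boxes in capitals. They lie at chr5:135979855-135980104 (plus strand) for Zp3 and at chr6:43309555-43309804 (minus strand) for Nobox.
Zp3: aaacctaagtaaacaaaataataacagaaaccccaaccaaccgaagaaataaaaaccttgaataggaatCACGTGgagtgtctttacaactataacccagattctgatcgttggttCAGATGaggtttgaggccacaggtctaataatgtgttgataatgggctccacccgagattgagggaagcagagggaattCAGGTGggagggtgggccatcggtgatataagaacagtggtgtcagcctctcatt
Nobox: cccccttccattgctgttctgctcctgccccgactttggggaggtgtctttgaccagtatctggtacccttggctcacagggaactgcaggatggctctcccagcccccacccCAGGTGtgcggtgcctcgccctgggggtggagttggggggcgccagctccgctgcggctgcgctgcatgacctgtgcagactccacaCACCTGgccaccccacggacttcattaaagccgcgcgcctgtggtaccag
An E-box was present in 32 of the 36 oocyte genes that fell and had a promoter entry (88.9%), and in 58.9% of the 11717 tested genes with an entry. The homeobox element TAATTG was in 3 of the 36 (8.33%) and in 4.36% of all. Both strands were searched, and an E-box can share letters with a TAATTG or a CCAAT element.

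Padi6, an enzyme-like protein of the fibrous lattices that store egg ribosomes, was at 111, 101, 208 and 185 CPM in the 4 other young libraries and 4.56, 2.59, 2.76, 7.82 and 17.7 CPM in the old ones, with 1.68 CPM in the oviduct-rich library. Its log2 change was -4.11 ± 0.76 (adjusted p = 0.00814) with all libraries and -4.43 ± 0.44 (4.28e-06) without the oviduct-rich one. Nlrp5, Nlrp4f and Ooep of the same complex changed by a log2 of -4.10 ± 0.76, -4.62 ± 0.85 and -2.92 ± 0.48 with all libraries and -4.43 ± 0.44, -4.97 ± 0.57 and -3.22 ± 0.33 without the oviduct-rich one. Tle6 and Khdc3 changed by a log2 of -1.59 ± 0.38 and -3.88 ± 0.92 with all libraries and -1.86 ± 0.27 and -4.25 ± 0.59 without the oviduct-rich one. Tle6 lost its call with all libraries without old replicates 2 or 3 or young replicate 4 (adjusted p up to 0.0692). Khdc3 lost its call with all libraries without old replicate 3 or young replicate 4 (adjusted p up to 0.0519).

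Among egg factors, H1foo, the linker histone of the egg, fell, with a log2 change of -4.22 ± 0.76 (adjusted p = 0.00812) with all libraries and -4.56 ± 0.42 (2.24e-06) without the oviduct-rich one. Its level was 45.9, 63.5, 66.3 and 50.9 CPM in the 4 other young libraries, 0.512 CPM in the oviduct-rich one and 1.49, 1.16, 0.690, 3.72 and 5.27 CPM in the old ones. Npm2, a chaperone that unpacks sperm chromatin, and Mos, the kinase that holds eggs in metaphase, changed by a log2 of -3.82 ± 0.66 and -4.51 ± 0.80 with all libraries and -4.14 ± 0.34 and -4.84 ± 0.50 without the oviduct-rich one. Rfpl4, Wee2, Dppa3, Tcl1b1, Oas1e and Khdc1b were among the 10 largest falls of genes called in both fits, with at least 5 CPM in the 4 other young libraries on average and no overlap with the old ones. Their log2 changes ran from -5.05 ± 0.87 (Rfpl4) to -4.28 ± 0.83 (Khdc1b) with all libraries and from -5.36 ± 0.55 to -4.61 ± 0.49 without the oviduct-rich one. Dnmt1, the maintenance DNA methyltransferase, which dividing cells use too, changed least in this list, with a log2 change of -1.10 ± 0.26 (adjusted p = 0.0182) with all libraries and -1.31 ± 0.19 (0.000134) without the oviduct-rich one. Of 11 germ cell RNA-binding genes, 5 fell with all libraries and 7 without the oviduct-rich one. Mael and Tdrd1, which act in silencing of transposons, changed by a log2 of -4.79 ± 0.87 and -3.88 ± 0.72 with all libraries and -5.15 ± 0.56 and -4.19 ± 0.52 without the oviduct-rich one. Ybx2, which stores maternal messages, changed by -2.30 ± 0.47 and -2.58 ± 0.39. Dnmt1 lost its call with all libraries without young replicate 4 (adjusted p up to 0.0512).

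**Figure D2:**
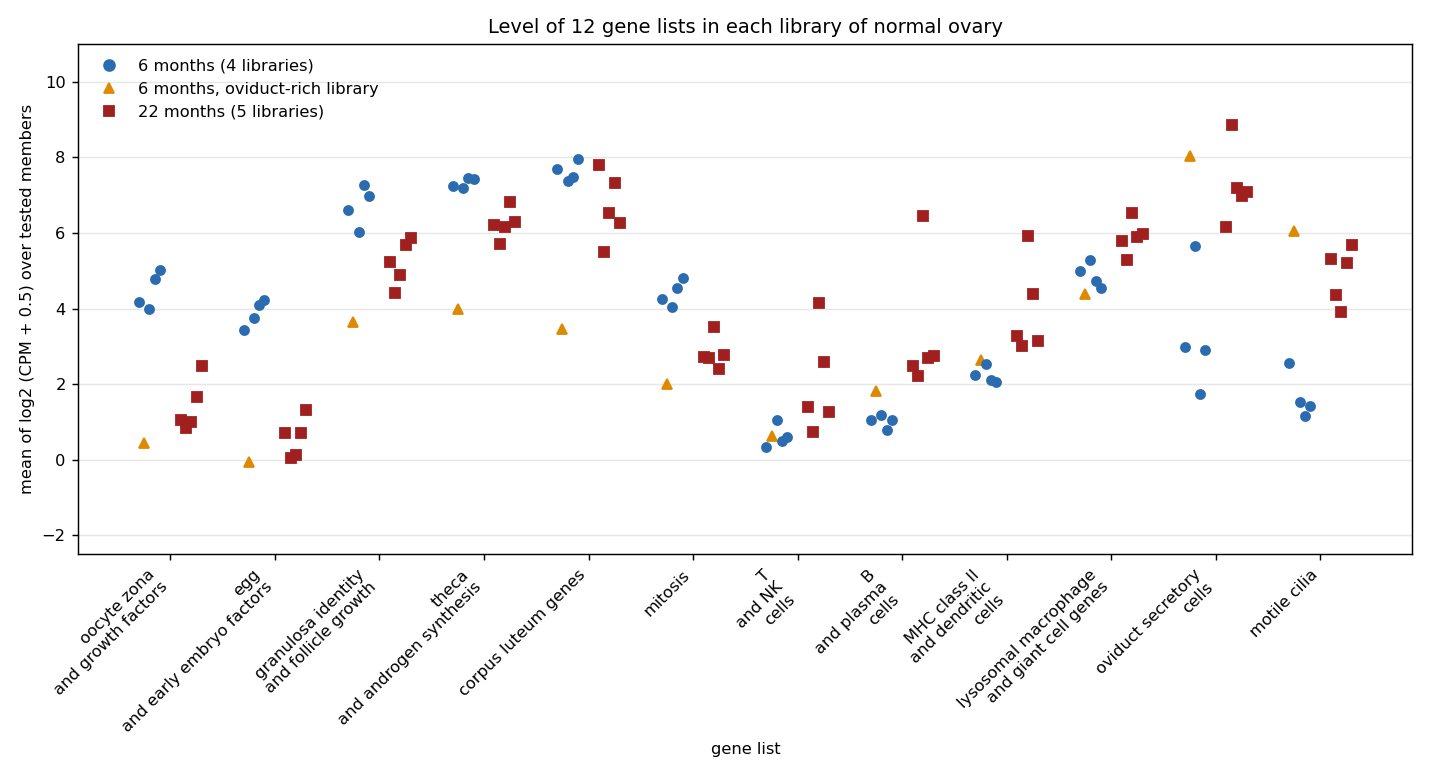
Mean over a list's tested members of log2(CPM + 0.5), vertical axis, in each of the 5 young and 5 old libraries for 12 gene lists, with the oviduct-rich library marked. Oocyte and mitosis lists are high in 4 young libraries and low in the oviduct-rich and old libraries, while the oviduct and cilia lists show the opposite order.

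Granulosa genes were lower in old ovaries, Amh most of all. Of 24 tested granulosa genes, 5 fell and 1 rose with all libraries, and 15 fell and 1 rose without the oviduct-rich library, with medians of -1.25 and -1.50. The 5 falls with all libraries became 2 without old replicates 1 or 2 or young replicates 1 or 4 and 3 without old replicate 3 or young replicate 5. Amh (chromosome 10, 80805248 to 80807648, plus strand), the hormone of small growing follicles that restrains recruitment of others, was at 199.5, 172, 318 and 182 CPM in the 4 other young libraries and 3.67, 4.19, 2.63, 13.6 and 11.8 CPM in the old ones, a 30.4-fold difference of means. The oviduct-rich library was at 4.38 CPM, within the range of the old ones. Amh fell, with a log2 change of -4.65 ± 0.71 (adjusted p = 0.00671) with all libraries and -4.99 ± 0.41 (1.08e-06) without the oviduct-rich one. Slc18a2, a monoamine transporter, followed with 62.1, 20.6, 154 and 141 CPM and 4.06, 4.10, 3.89, 7.45 and 11.2 CPM and a log2 change of -3.65 ± 0.78 (adjusted p = 0.0128) with all libraries and -3.98 ± 0.48 (2.26e-05) without the oviduct-rich one.

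Inha, the alpha subunit of inhibin, was at 2351, 2363, 2752 and 2777 CPM in the 4 other young libraries, 36.2 CPM in the oviduct-rich one and 596, 429, 241, 1049 and 900.5 CPM in the old ones. The 4 young libraries lay above all 5 old ones, and the call depended on the oviduct-rich library, with a log2 change of -1.68 ± 0.62 (adjusted p = 0.111) with all libraries and -1.99 ± 0.31 (0.000206) without the oviduct-rich one. The same held for Hsd17b1, which makes estradiol from estrone, with a log2 change of -1.94 ± 0.69 (adjusted p = 0.0975) with all libraries and -2.26 ± 0.44 (0.00119) without the oviduct-rich one. Fshr, the receptor of follicle-stimulating hormone, changed by a log2 of -2.54 ± 0.82 (adjusted p = 0.0702) with all libraries and -2.89 ± 0.61 (0.00207) without the oviduct-rich one, and Foxl2, the granulosa identity factor, by -0.75 ± 0.38 (adjusted p = 0.24) with all libraries and -1.01 ± 0.28 (0.0115) without the oviduct-rich one. Esr2, the estrogen receptor of granulosa cells, fell in both fits, with a log2 change of -2.39 ± 0.64 (adjusted p = 0.0306) with all libraries and -2.72 ± 0.37 (6.53e-05) without the oviduct-rich one. Inhba and Cyp19a1, genes of large antral follicles, passed in neither fit. Cyp19a1, the estrogen-making aromatase, was at 2.41, 3.58, 45.2 and 2.66 CPM in the 4 other young libraries and 1.88, 0.535, 1.32, 11.2 and 5.54 CPM in the old ones, with young replicate 4 far above the rest. Gatm, an enzyme of creatine synthesis, was the member that rose, by a log2 of 0.86 ± 0.23 (adjusted p = 0.0283) with all libraries and 0.70 ± 0.21 (0.0165) without the oviduct-rich one. Kitl, the ligand of Kit, was at 19.6, 8.05, 43.3 and 37.4 CPM in the 4 other young libraries and 20.1, 24.6, 29.1, 21.2 and 30.4 CPM in the old ones, which overlap. Foxl2 lost its call in the fit without the oviduct-rich library on also leaving out young replicate 1 (adjusted p up to 0.0501). Esr2 lost its call with all libraries without old replicates 1, 2, 3 or 4 or young replicates 1, 4 or 5 (adjusted p up to 0.0891). Gatm lost its call with all libraries without old replicate 3 or young replicate 4 (adjusted p up to 0.0706). Gatm also lost its call in the other fit without young replicate 4 (adjusted p up to 0.0602).

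Foxo1, the forkhead factor of granulosa cells that insulin and follicle-stimulating hormone keep in check, was at 372, 343, 393 and 569.7 CPM in the 4 other young libraries, 107 CPM in the oviduct-rich one and 113, 118, 100.2, 118 and 159 CPM in the old ones. It fell, with a log2 change of -1.55 ± 0.29 (adjusted p = 0.00814) with all libraries and -1.79 ± 0.19 (5.95e-06) without the oviduct-rich one. Foxo3, which holds oocytes of resting follicles dormant, was at 53.9, 17.9, 54.3 and 57.9 CPM in the 4 other young libraries and 50.7, 53.5, 60.0, 41.1 and 56.5 CPM in the old ones, and its change was 0.20 ± 0.22 (adjusted p = 0.614) with all libraries and 0.14 ± 0.23 (0.684) without the oviduct-rich one. Foxo1 was the 1 member of 11 forkhead and sirtuin genes that fell in either fit.

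Theca and luteal genes separated less. Of 14 tested theca and androgen synthesis genes, 1 fell with all libraries and 8 without the oviduct-rich library (medians -0.63 and -0.94). Of 14 corpus luteum genes, 0 and then 3 fell, by edgeR (medians -0.41 and -0.73). The 8 theca genes became 4 without young replicate 5 and 5 without old replicate 2 or young replicate 4. The 3 luteal genes became 5 without old replicate 1. Gli1, the hedgehog target of theca cells, was the one called in both fits, at 91.3, 133, 79.2 and 111 CPM in the 4 other young libraries, 37.3 CPM in the oviduct-rich one and 25.8, 21.7, 56.8, 60.0 and 37.0 CPM in the old ones, with a log2 change of -1.16 ± 0.29 (adjusted p = 0.0234) with all libraries and -1.36 ± 0.25 (0.00065) without the oviduct-rich one. Cyp17a1, the enzyme that commits steroids to androgens, was at 80.6, 153, 597 and 199 CPM in the 4 other young libraries and 7.88, 46.5, 7.46, 102 and 42.6 CPM in the old ones, which overlap, and changed by a log2 of -2.34 ± 0.94 (adjusted p = 0.139) with all libraries and -2.67 ± 0.79 (0.0177) without the oviduct-rich one. Cyp11a1, which starts all steroid synthesis, was at 4125, 2829, 2949 and 2984 CPM in the 4 other young libraries and 3778, 714, 1235, 3177 and 1032 CPM in the old ones. Old replicates 1 and 4 lay inside the young range, the other 3 below it, and the change was -0.38 ± 0.74 (adjusted p = 0.798) with all libraries and -0.70 ± 0.49 (0.309) without the oviduct-rich one. Star, which moves cholesterol into mitochondria, changed by a log2 of -0.63 ± 0.57 (adjusted p = 0.532) with all libraries and -0.93 ± 0.39 (0.082) without the oviduct-rich one. Lhcgr and Akr1c18, the luteinizing hormone receptor and the enzyme that ends progesterone secretion, changed by a log2 of -0.43 ± 0.77 and -0.22 ± 0.97 with all libraries and -0.75 ± 0.53 and -0.54 ± 0.84 without the oviduct-rich one, and were called in neither fit. Akr1c18 was at 589, 26.0, 13.7, 12.7 and 65.6 CPM in the old libraries. Gli1 lost its call with all libraries without old replicates 1 or 2 or young replicates 1 or 3 (adjusted p up to 0.0565). Cyp17a1 lost its call in the fit without the oviduct-rich library on also leaving out young replicate 4 (adjusted p up to 0.103).

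The ratio of an ovarian gene to Nr5a1 within a library removes the share of ovarian tissue that both genes have in common, and lets the oviduct-rich library be used. This scale was added after the data were seen. It was used for ovarian genes that this library held at under 10% of the mean of the 4 other young ones, with at least 5 CPM there. Such genes are high in young libraries by choice, so the values below describe single genes, and counts over them are no test. A count of 0.5 was added to both genes of each ratio. The ratio shows only that 2 genes changed unequally, not that Nr5a1 stayed level, and Nr5a1 itself changed by a log2 of -0.77 ± 0.61 (adjusted p = 0.471) with all libraries and -1.09 ± 0.28 (0.00775) without the oviduct-rich one.

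Gdf9 relative to Nr5a1 was 0.140, 0.193, 0.189, 0.176 and 0.286 in the 5 young libraries, of which the oviduct-rich one is the second, and 0.0171, 0.0169, 0.0255, 0.0266 and 0.0447 in the old ones. That library, far below all others in Gdf9 itself, lay inside the young range on this scale, though on 16 counts of Gdf9. Amh relative to Nr5a1 was 0.371, 0.708, 0.329, 0.473 and 0.427 in the young libraries and 0.0138, 0.0199, 0.0203, 0.0358 and 0.0432 in the old ones, with a log2 difference of -4.19. Padi6 and Zp3 differed by -3.58 and -3.79, and rest on 23 and 7 counts in the oviduct-rich library. Inha and Hsd17b1 differed by -1.07 and -1.50. In each of these 6 genes every old library lay below every young one. The same held for 68 of all 310 tested genes that met the 2 criteria (21.9%). With Amhr2 in place of Nr5a1, the groups lay apart for Amh alone of the 6, with a log2 difference of -4.05, and for 38 of the 310 (12.3%). For Gdf9, Padi6, Zp3, Inha and Hsd17b1 the groups then overlapped, at -2.82, -3.43, -3.65, -0.93 and -1.36, with the oviduct-rich library the lowest of the 5 young ones in each. Cyp11a1 relative to Nr5a1 was 7.66, 3.96, 5.41, 4.39 and 6.98 in the young and 14.1, 3.35, 9.39, 8.31 and 3.78 in the old libraries, which overlap, with a log2 difference of 0.29. For Star, Hsd3b1, Prlr and Scarb1 the log2 differences were -0.23, 0.19, -0.24 and -0.83.

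**Figure D3:**
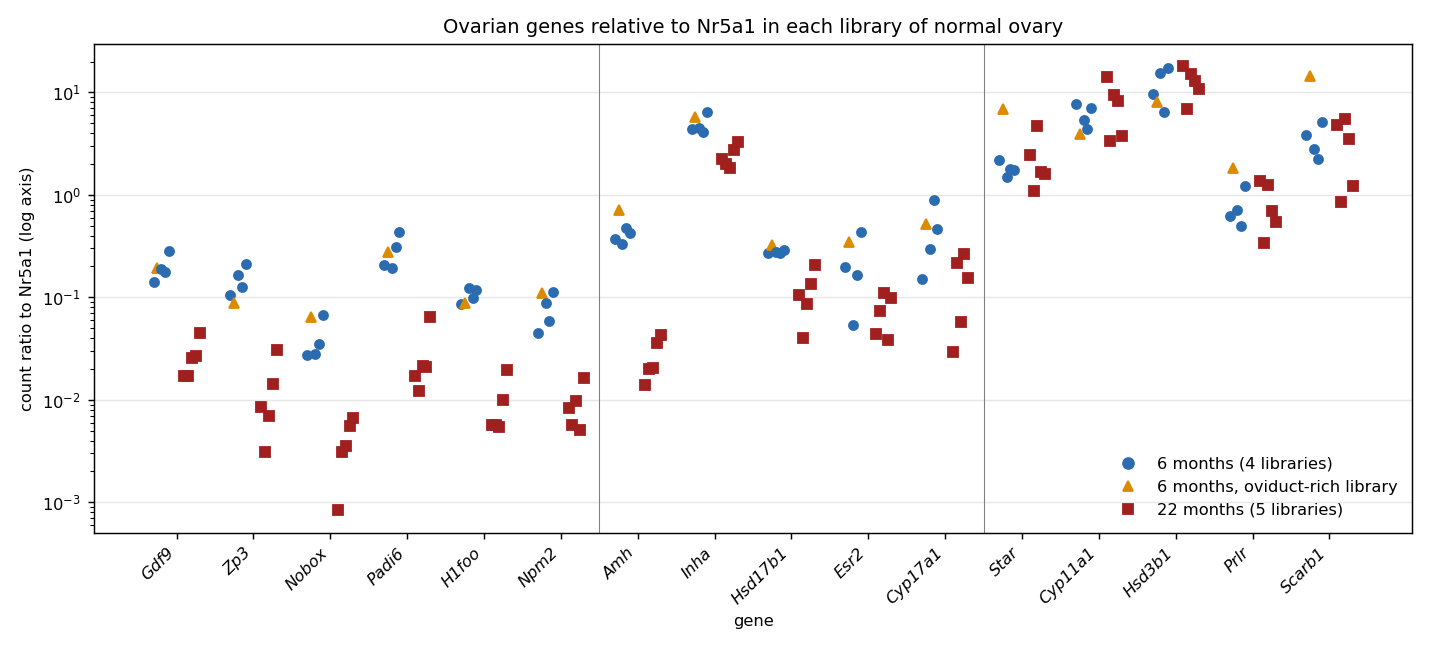
Counts of each gene divided by those of Nr5a1 in the same library, with 0.5 added to each count (log axis), in the 5 young and 5 old libraries, with the oviduct-rich library marked: oocyte genes on the left, granulosa genes and Cyp17a1 in the middle, theca and luteal genes on the right. For the 6 oocyte genes and for Amh, Inha and Hsd17b1 the old libraries lie below all 5 young ones, and for the genes on the right the groups overlap. All genes shown were picked among those low in the oviduct-rich library and high in the other young ones.

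Genes of cell division were lower in old ovaries. Of 28 tested mitosis genes, 15 fell with all libraries and 26 without the oviduct-rich library, with medians of -1.49 and -1.79, and none rose. Of 23 replication genes 5 and then 16 fell, and of 22 genes of DNA break repair and checkpoints 3 and then 11. The 15 mitosis genes became 9 without young replicate 4. The 5 replication genes became 2 without old replicate 1 or young replicates 1, 4 or 5 and 3 without old replicates 2, 4 or 5 or young replicate 3. The 11 repair genes became 7 without old replicate 1 or young replicate 5. Granulosa cells of growing follicles are the main dividing cells of the ovary. All 26 mitosis genes that fell were also lower in the oviduct-rich library than in the 4 other young ones, and none of the 28 separated 5 old from 5 young libraries, while 23 separated them from the 4 other young ones.

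Bub1b (chromosome 2, 118598211 to 118641592, plus strand), a kinase of the spindle checkpoint, was at 43.6, 33.1, 51.0 and 60.3 CPM in the 4 other young libraries, 3.95 CPM in the oviduct-rich one and 5.55, 7.41, 13.7, 5.59 and 7.87 CPM in the old ones. It fell, with a log2 change of -2.25 ± 0.45 (adjusted p = 0.0103) with all libraries and -2.56 ± 0.26 (4.28e-06) without the oviduct-rich one. Aurka and Plk1, kinases that build the spindle, were at 20.8, 20.6, 25.3 and 30.0 CPM and 33.2, 34.9, 37.7 and 40.6 CPM in the 4 other young libraries and at 5.70, 4.73, 6.78, 3.72 and 5.68 CPM and 8.17, 9.28, 13.2, 4.47 and 9.44 CPM in the old ones. Their log2 changes were -1.93 ± 0.32 (adjusted p = 0.00745) with all libraries and -2.18 ± 0.22 (3.68e-06) without the oviduct-rich one for Aurka and -1.76 ± 0.35 (adjusted p = 0.00977) with all libraries and -2.02 ± 0.21 (5.56e-06) without the oviduct-rich one for Plk1. For each of these 3 kinases all 5 old libraries lay below the 4 other young ones.

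The promoters of Ccnb1 and Ccnb2, the B-type cyclins that drive entry into mitosis, and of Cdc20, which starts their destruction, are shown because many genes of this stage share 2 elements: CCAAT boxes bound by the factor NF-Y, and a CHR element (TTTGAA or TTTAAA) bound by DREAM and B-MYB complexes. Letters are as above, with both elements in capitals, at chr13:100786487-100786736 (minus strand) for Ccnb1, chr9:70421555-70421804 (minus strand) for Ccnb2 and chr4:118437344-118437593 (minus strand) for Cdc20.
Ccnb1: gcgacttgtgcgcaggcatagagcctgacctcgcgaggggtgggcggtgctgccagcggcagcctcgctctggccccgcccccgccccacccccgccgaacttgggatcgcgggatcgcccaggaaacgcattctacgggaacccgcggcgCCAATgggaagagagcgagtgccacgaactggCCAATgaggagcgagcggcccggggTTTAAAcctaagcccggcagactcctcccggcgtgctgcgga
Ccnb2: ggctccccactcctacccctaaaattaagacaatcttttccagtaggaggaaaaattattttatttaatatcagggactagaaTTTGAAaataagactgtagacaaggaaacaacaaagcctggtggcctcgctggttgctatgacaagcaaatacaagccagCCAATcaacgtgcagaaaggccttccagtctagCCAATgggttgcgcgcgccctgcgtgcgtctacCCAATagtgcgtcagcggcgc
Cdc20: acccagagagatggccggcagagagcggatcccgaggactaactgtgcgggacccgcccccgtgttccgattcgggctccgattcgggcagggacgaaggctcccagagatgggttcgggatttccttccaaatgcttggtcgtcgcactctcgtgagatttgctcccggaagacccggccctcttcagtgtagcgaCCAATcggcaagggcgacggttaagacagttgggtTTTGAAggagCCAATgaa
Of the 26 mitosis genes that fell, 23 had a promoter entry. A CCAAT box was in 20 of them (87%) and in 35.4% of all 11717 promoters, a CHR element in 12 (52.2%) and in 17.9%, and both in 11 (47.8%) and in 6.54%. Of all 28 listed mitosis genes 25 had an entry, and the shares there were 84%, 52% and 48%. The shares thus belong to the mitosis list as a whole and not to the genes that fell in particular. Both strands were searched, and these 2 elements share no letters in a way that makes 1 match count for the other. A match is a run of letters and not a measured site: the CHR letters of Ccnb2 lie upstream of its CCAAT boxes, while CHR sites known to work lie downstream of them.

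Ccnb1 was at 15.1, 8.94, 22.8 and 27.0 CPM in the 4 other young libraries, 2.05 CPM in the oviduct-rich one and 2.48, 2.32, 7.15, 3.35 and 2.67 CPM in the old ones, with a log2 change of -2.10 ± 0.48 (adjusted p = 0.0154) with all libraries and -2.40 ± 0.35 (0.00012) without the oviduct-rich one. Ccnb2 changed by a log2 of -1.63 ± 0.40 (adjusted p = 0.0205) with all libraries and -1.93 ± 0.21 (6.17e-06) without the oviduct-rich one and Cdc20 by -1.34 ± 0.28 (adjusted p = 0.0114) with all libraries and -1.56 ± 0.20 (4.49e-05) without the oviduct-rich one. The licensing helicase subunit Mcm5 was at 44.7, 62.6, 72.9 and 68.5 CPM in the 4 other young libraries and 13.7, 13.3, 31.7, 12.8 and 17.7 CPM in the old ones, with a log2 change of -1.54 ± 0.35 (adjusted p = 0.015) with all libraries and -1.79 ± 0.24 (5.11e-05) without the oviduct-rich one. Mcm2 changed by a log2 of -0.97 ± 0.22 (adjusted p = 0.0159) with all libraries and -1.13 ± 0.19 (0.000473) without the oviduct-rich one. In the repair list, Exo1 and Xrcc2 fell, with log2 changes of -2.01 ± 0.46 and -1.05 ± 0.24 with all libraries and -2.32 ± 0.28 and -1.23 ± 0.21 without the oviduct-rich one. H2afx, the histone that marks broken DNA when phosphorylated, was at 49.7, 94.8, 48.9 and 61.4 CPM in the 4 other young libraries, 74.9 CPM in the oviduct-rich one and 33.8, 43.2, 47.2, 31.3 and 38.2 CPM in the old ones, so that all 5 young libraries exceeded all 5 old ones. It fell, with a log2 change of -0.75 ± 0.17 (adjusted p = 0.015) with all libraries and -0.69 ± 0.18 (0.00777) without the oviduct-rich one. Ccnb2 lost its call with all libraries without young replicate 4 (adjusted p up to 0.0536).

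**Figure D4:**
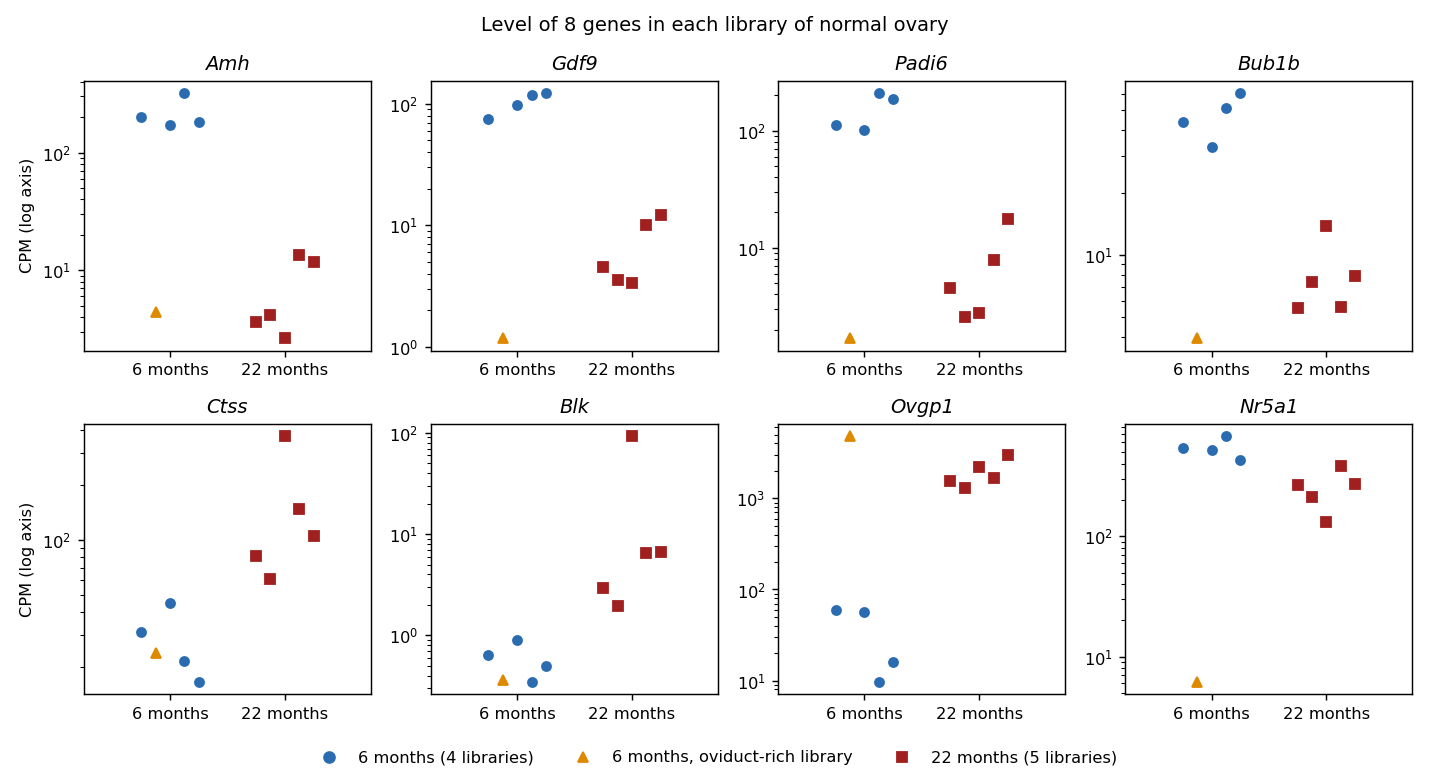
CPM (log axis) of 8 genes in each of the 5 young and 5 old libraries, with the oviduct-rich library marked. For Amh, Gdf9, Padi6, Bub1b and Nr5a1 that library lies with or below the old libraries, for Ovgp1 above them, and for Ctss and Blk with the other young ones.

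Macrophage genes were higher in old ovaries, and this held with and without the oviduct-rich library. Of 23 tested genes of lysosome-rich macrophages and giant cells, 8 rose with all libraries and 14 without it, with medians of 0.82 and 1.07. The 8 became 5 without old replicate 3 or young replicate 4. The 14 became 8 without young replicates 4 or 5 and 9 without old replicate 3. Ctss (chromosome 3, 95526786 to 95556403, plus strand), a protease of antigen-presenting cells, was at 31.2, 23.8, 44.7, 21.7 and 16.6 CPM in the 5 young libraries and 80.9, 61.1, 368, 148 and 104 CPM in the old ones. All old libraries lay above all young ones, and Ctss rose by a log2 of 2.51 ± 0.42 (adjusted p = 0.00745) with all libraries and 2.49 ± 0.46 (0.000926) without the oviduct-rich one. Lyz2, the lysozyme of myeloid cells, was at 101, 50.9, 139, 68.2 and 69.1 CPM and 279, 163, 724, 261 and 302 CPM and separated in the same way, with a log2 change of 2.04 ± 0.36 (adjusted p = 0.00787) with all libraries and 1.90 ± 0.37 (0.00119) without the oviduct-rich one. Ctsd, a lysosomal protease, rose by a log2 of 1.22 ± 0.23 (adjusted p = 0.00896) with all libraries and 1.21 ± 0.25 (0.00193) without the oviduct-rich one, and Gpnmb, a marker of lipid-laden macrophages, by 2.82 ± 0.58 (adjusted p = 0.011) with all libraries and 2.65 ± 0.61 (0.00407) without the oviduct-rich one. Gpnmb was at 26.5, 15.1, 60.8, 29.0 and 31.9 CPM in the young libraries and 288, 43.8, 183, 251 and 339 CPM in the old ones, where replicate 2 alone lay inside the young range. Mmp12, a macrophage elastase named after its values were seen, was at 1.52, 0, 0, 2.27 and 4.08 CPM and 16.1, 4.82, 5.39, 15.3 and 23.1 CPM, without overlap. Cd68 and Plin2 were called in both fits, with log2 changes of 1.22 ± 0.35 and 0.52 ± 0.15 with all libraries and 1.07 ± 0.35 and 0.44 ± 0.15 without the oviduct-rich one. Cd68 lost its call with all libraries without old replicates 3, 4 or 5 or young replicates 1, 4 or 5 (adjusted p up to 0.111). Cd68 also lost its call in the other fit without old replicates 3 or 4 or young replicates 1, 4 or 5 (adjusted p up to 0.1). Plin2 lost its call with all libraries without old replicates 3, 4 or 5 or young replicates 4 or 5 (adjusted p up to 0.111). Plin2 also lost its call in the other fit without old replicates 3 or 5 or young replicates 4 or 5 (adjusted p up to 0.119).

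Of 19 tested genes of tissue-resident macrophages, 4 rose with all libraries and 8 without the oviduct-rich library. The 4 became 0 without old replicate 3 or young replicates 4 or 5, 1 without young replicate 1 and 2 without old replicate 4. The 8 became 2 without young replicates 4 or 5 and 3 without old replicate 3. By edgeR, Fcgr1, an antibody receptor, changed by a log2 of 1.66 ± 0.45 (adjusted p = 0.0344) with all libraries and 1.75 ± 0.50 (0.0137) without the oviduct-rich one and Tyrobp, a signalling adaptor, by 1.34 ± 0.35 (adjusted p = 0.0274) with all libraries and 1.22 ± 0.36 (0.0152) without the oviduct-rich one. Fcgr1 was at 3.42, 4.24, 1.79, 4.06 and 2.60 CPM in the young libraries and 5.60, 9.46, 21.8, 11.2 and 5.20 CPM in the old ones, without overlap. C3ar1, the receptor of a complement fragment, rose by a log2 of 1.51 ± 0.35 (adjusted p = 0.0169) with all libraries and 1.40 ± 0.37 (0.00899) without the oviduct-rich one. Of 20 complement genes 2 rose with all libraries, and 8 rose and 1 fell without the oviduct-rich one. The 8 became 5 without young replicates 4 or 5. C3 is also made by oviduct epithelium under estrogen: it was at 310.4, 216, 104 and 103 CPM in the 4 other young libraries, 7954 CPM in the oviduct-rich one and 3047, 5017, 7004, 2856 and 5924 CPM in the old ones, with a log2 change of 1.46 ± 1.08 (adjusted p = 0.436) with all libraries and 4.71 ± 0.87 (0.00091) without the oviduct-rich one. Fcgr1 lost its call with all libraries without old replicates 3 or 4 or young replicates 1, 3, 4 or 5 (adjusted p up to 0.124). Tyrobp lost its call with all libraries without old replicates 3 or 4 or young replicates 1, 4 or 5 (adjusted p up to 0.0846). Tyrobp also lost its call in the other fit without young replicates 4 or 5 (adjusted p up to 0.0699). C3ar1 lost its call with all libraries without young replicate 4 (adjusted p up to 0.0538).

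Genes of antigen presentation and lymphocytes were higher as well, with old replicate 3 far above the rest. Of 16 tested genes of MHC class II and dendritic cells, 7 rose with all libraries and 11 without the oviduct-rich one (medians 2.51 and 2.84). The 7 became 1 without old replicate 3 or young replicate 4 and 2 without old replicate 4 or young replicates 1 or 5. The 11 became 4 without old replicate 3, 5 without young replicates 4 or 5 and 6 without young replicate 1. Itgax, the integrin of dendritic cells, was at 3.30, 2.85, 0, 3.88 and 2.60 CPM in the young libraries and 14.9, 8.74, 51.4, 25.5 and 10.7 CPM in the old ones, without overlap, and rose by a log2 of 2.97 ± 0.53 (adjusted p = 0.00787) with all libraries and 2.94 ± 0.57 (0.00109) without the oviduct-rich one. Cd74, the chaperone of class II molecules, was at 162, 313, 432, 116 and 116 CPM in the young libraries and 394, 490.1, 3818, 1409 and 328 CPM in the old ones. Old replicates 3 and 4 were high, the other 3 near the upper young values, and the change was 2.51 ± 0.73 (adjusted p = 0.0452) with all libraries and 2.67 ± 0.81 (0.0205) without the oviduct-rich one. H2-Aa, a class II chain, changed by a log2 of 2.50 ± 0.69 (adjusted p = 0.0376) with all libraries and 2.77 ± 0.78 (0.0129) without the oviduct-rich one. Cd74 lost its call with all libraries without old replicates 3 or 4 or young replicates 1, 4 or 5 (adjusted p up to 0.2). Cd74 also lost its call in the other fit without old replicate 3 or young replicates 1, 4 or 5 (adjusted p up to 0.0889). H2-Aa lost its call with all libraries without old replicates 3 or 4 or young replicates 1, 4 or 5 (adjusted p up to 0.163). H2-Aa also lost its call in the other fit without old replicate 3 (adjusted p up to 0.0507).

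B cell genes rose, with old replicate 3 far above the rest. Of 16 tested B and plasma cell genes, 10 rose with all libraries and 14 without the oviduct-rich library (medians 4.29 and 4.94). The 10 became 1 without old replicate 3, 2 without young replicate 4 and 4 without young replicates 1 or 5. The 14 became 8 without old replicate 3 and 9 without young replicate 4. Blk (chromosome 14, 63372837 to 63417187, minus strand), a kinase of the B cell receptor, was at 0.634, 0.365, 0.894, 0.349 and 0.495 CPM in the young libraries and 2.92, 1.96, 92.0, 6.52 and 6.64 CPM in the old ones. All 5 old libraries lay above the young ones, with replicate 3 far above the rest, and Blk rose by a log2 of 5.54 ± 1.00 (adjusted p = 0.00812) with all libraries and 5.47 ± 1.15 (0.00216) without the oviduct-rich one. Ms4a1, which encodes the CD20 antigen, changed by a log2 of 5.47 ± 1.44 (adjusted p = 0.0295) with all libraries and 5.29 ± 1.60 (0.0204) without the oviduct-rich one. Pou2af1, Faim3 and H2-Ob, other B cell genes, changed by a log2 of 5.56 ± 1.43, 5.52 ± 1.39 and 5.02 ± 1.16 with all libraries and 8.11 ± 1.88, 6.57 ± 1.71 and 5.28 ± 1.35 without the oviduct-rich one. Ly6d, which marks B cell precursors and also epithelia, was at 7.03, 7.76, 455, 9.12 and 13.2 CPM in the old libraries. Igj, the joining chain of secreted antibodies, which plasma cells of the oviduct make too, was at 1.52, 0.894, 0.524 and 3.22 CPM in the 4 other young libraries, 34.4 CPM in the oviduct-rich one and 19.4, 50.4, 249, 122 and 66.9 CPM in the old ones. Ms4a1 lost its call with all libraries without old replicate 3 or young replicates 1, 4 or 5 (adjusted p up to 0.299). Ms4a1 also lost its call in the other fit without old replicate 3 or young replicates 4 or 5 (adjusted p up to 0.244). Pou2af1 and Faim3 lost their calls with all libraries without old replicate 3 or young replicates 1, 4 or 5 (adjusted p up to 0.15 and 0.122). H2-Ob lost its call with all libraries without old replicate 3 or young replicate 4 (adjusted p up to 0.0856).

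Cxcl13, the chemokine that draws B cells into follicles of lymphoid tissue, was at 0.507, 2.05, 0, 0.524 and 0.557 CPM in the young libraries and 1.53, 13.8, 366, 10.6 and 6.16 CPM in the old ones. Old replicate 1 lay below the oviduct-rich library and above the other young ones, and Cxcl13 rose by a log2 of 6.51 ± 1.42 (adjusted p = 0.0133) with all libraries and 7.27 ± 1.70 (0.00439) without the oviduct-rich one. Ltb, a cytokine that builds such tissue, was at 2.28, 4.31, 2.68, 2.18 and 2.04 CPM and 8.17, 7.58, 122, 15.3 and 7.53 CPM, without overlap, with a log2 change of 3.57 ± 0.70 (adjusted p = 0.00973) with all libraries and 3.86 ± 0.80 (0.00193) without the oviduct-rich one. Of 6 tested lymphoid chemokines and cytokines 3 rose with all libraries and 4 without the oviduct-rich one, and 3 still rose with all libraries when old replicate 3 was left out.

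Of 16 tested T and NK cell genes, 9 rose with all libraries and 13 without the oviduct-rich one. The 9 became 2 without old replicate 3 and 3 without young replicate 4. The 13 became 7 without old replicate 3 or young replicate 4 and 8 without young replicate 5. Cd3e, a chain of the T cell receptor complex, was at 2.15, 3.07, 1.79, 1.40 and 1.42 CPM in the young libraries and 4.41, 1.78, 28.5, 15.8 and 2.74 CPM in the old ones, with replicates 3 and 4 high and replicate 2 inside the young range. It rose by a log2 of 2.42 ± 0.59 (adjusted p = 0.0211) with all libraries and 2.69 ± 0.66 (0.00563) without the oviduct-rich one. Zap70, the kinase beside that receptor, rose by a log2 of 1.78 ± 0.38 (adjusted p = 0.012) with all libraries and 2.09 ± 0.41 (0.00113) without the oviduct-rich one, and Cd4 by 2.66 ± 0.58 (adjusted p = 0.0129) with all libraries and 2.67 ± 0.65 (0.00501) without the oviduct-rich one. Ccl5, a chemokine of T and NK cells, was at 3.37, 1.70, 172, 36.1 and 1.99 CPM in the old libraries, where 2 of 5 exceeded the young ones, and changed by a log2 of 4.60 ± 1.10 (adjusted p = 0.0202) with all libraries and 4.38 ± 1.22 (0.0127) without the oviduct-rich one. Of the 13 T cell genes that rose without the oviduct-rich library, 3 were above the 4 other young libraries in it. Among all genes that rose in that fit the share was 84.9%, and among genes not called 18.6%. Cd3e lost its call with all libraries without old replicate 3 or young replicates 4 or 5 (adjusted p up to 0.0861). Ccl5 lost its call with all libraries without old replicate 3 or young replicate 4 (adjusted p up to 0.0883). Ccl5 also lost its call in the other fit without old replicate 3 (adjusted p up to 0.0586).

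All 7 tested mast cell genes rose without the oviduct-rich library and 4 with all libraries (medians 2.30 and 1.78). The 4 became 0 without young replicates 1, 4 or 5, 1 without old replicates 1 or 4 and 2 without old replicate 3. The 7 became 4 without young replicate 4. Cma1, the mast cell chymase, was at 2.92, 6.65, 20.6, 4.32 and 2.29 CPM in the young libraries and 40.0, 21.5, 10.2, 35.9 and 25.9 CPM in the old ones, and rose by a log2 of 2.07 ± 0.55 (adjusted p = 0.0304) with all libraries and 2.20 ± 0.61 (0.0117) without the oviduct-rich one. Young replicate 3 and old replicate 3 were the ones that overlapped. Cpa3, a protease of mast cell granules, was at 0, 0.219, 0.894, 0.611 and 0.495 CPM and 3.47, 2.50, 3.01, 4.66 and 3.35 CPM, without overlap, with a log2 change of 3.10 ± 0.83 (adjusted p = 0.0311) with all libraries and 2.91 ± 0.86 (0.0165) without the oviduct-rich one. Hdc, which makes histamine, was at 836 CPM in the oviduct-rich library and 220.5, 462, 748, 302 and 452 CPM in the old ones, against 36.4, 34.9, 15.8 and 29.1 CPM in the 4 other young libraries. Of 26 interferon-induced genes 1 rose with all libraries and 12 without the oviduct-rich one. In 9 of the 12 the oviduct-rich library was above the 4 other young ones. The 12 became 4 without young replicate 4, 5 without young replicate 5 and 7 without young replicate 1. The 1 called with all libraries was Ifit3, at 2.28, 1.46, 0.894, 1.53 and 2.72 CPM in the young libraries and 8.32, 21.7, 12.5, 13.0 and 7.32 CPM in the old ones, with a log2 change of 2.73 ± 0.54 (adjusted p = 0.01) with all libraries and 2.62 ± 0.59 (0.00325) without the oviduct-rich one. Irf7, a factor of this response, changed by a log2 of 1.33 ± 0.47 (adjusted p = 0.0974) with all libraries and 1.67 ± 0.50 (0.0186) without the oviduct-rich one. Of 5 neutrophil genes 1 rose and 1 fell without the oviduct-rich library. The 1 that rose was Ltf, which oviduct epithelium also makes, with a log2 change of 0.58 ± 1.26 (adjusted p = 0.822) with all libraries and 3.44 ± 1.26 (0.0495) without the oviduct-rich one. Cma1 lost its call with all libraries without old replicates 1 or 4 or young replicates 1, 4 or 5 (adjusted p up to 0.0906). Cma1 also lost its call in the other fit without young replicate 4 (adjusted p up to 0.0509). Cpa3 lost its call with all libraries without old replicates 3 or 4 or young replicates 1, 4 or 5 (adjusted p up to 0.0664). Irf7 lost its call in the fit without the oviduct-rich library on also leaving out young replicates 4 or 5 (adjusted p up to 0.06). Ltf lost its call in the fit without the oviduct-rich library on also leaving out old replicates 1, 2, 3, 4 or 5 or young replicates 1, 4 or 5 (adjusted p up to 0.116).

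**Figure D5:**
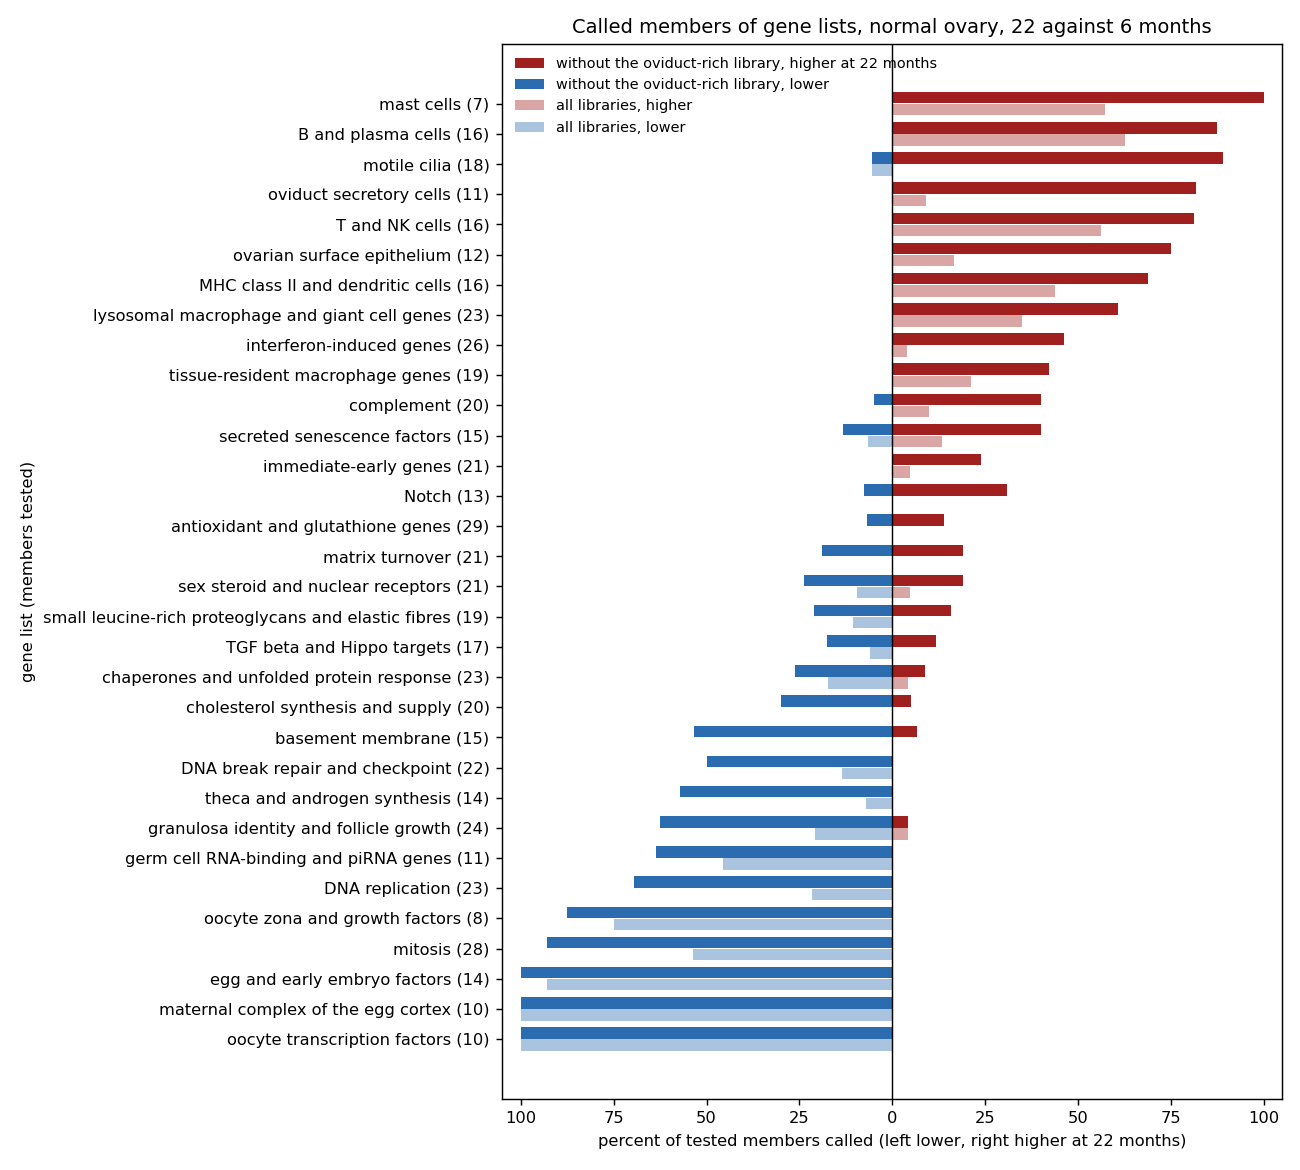
Share (%) of the tested members of each list called higher (positive side) and lower (negative side) in old ovaries at an adjusted p under 0.05 by edgeR, with all libraries and without the oviduct-rich library, for lists with at least 5 members called without it. Oocyte and mitosis lists are called lower at a high share in both fits, and most immune lists higher in both. Interferon-induced genes (1 of 26, then 12) and the oviduct and cilia lists are called higher almost only without that library.

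Matrix lists differed in direction. Without the oviduct-rich library, called collagen and basement membrane genes mostly fell. Small leucine-rich proteoglycans and elastic fibre genes (3 of 19 rose and 4 fell) and matrix turnover genes went both ways. In that fit 15.9% of all tested genes rose and 11.9% fell, so the counts of these 2 lists are not read as a trait of theirs. Of 15 collagens, 1 fell with all libraries and 4 without the oviduct-rich one, and none rose. The 4 became 1 without old replicate 2 or young replicate 1 and 2 without old replicate 3 or young replicate 4. Col1a1, the main collagen of connective tissue, was at 1351, 1161, 843, 765 and 625 CPM in the young libraries and 1152, 248, 547, 614 and 715 CPM in the old ones, which overlap, and changed by a log2 of -0.53 ± 0.31 (adjusted p = 0.312) with all libraries and -0.45 ± 0.33 (0.325) without the oviduct-rich one. Col3a1 changed by a log2 of -0.44 ± 0.27 (adjusted p = 0.342) with all libraries and -0.53 ± 0.28 (0.172) without the oviduct-rich one. Col11a1, a minor fibrillar collagen, was the one that fell in both fits, with a log2 change of -2.63 ± 0.63 (adjusted p = 0.0202) with all libraries and -2.96 ± 0.38 (3.78e-05) without the oviduct-rich one, at 65.4, 12.5, 79.6 and 63.0 CPM in the 4 other young libraries and 5.35, 6.07, 12.5, 3.17 and 8.96 CPM in the old ones. Of 15 basement membrane genes 8 fell and 1 rose without the oviduct-rich library and none changed with all libraries by edgeR. The 8 became 4 without young replicate 5 and 5 without old replicate 2 or young replicate 1. Lama1, a laminin of the follicle wall, was at 368, 233, 531 and 382 CPM in the 4 other young libraries, 19.3 CPM in the oviduct-rich one and 199, 132, 116, 161 and 189 CPM in the old ones, with a log2 change of -0.95 ± 0.48 (adjusted p = 0.242) with all libraries and -1.25 ± 0.24 (0.00109) without the oviduct-rich one. Fbln1 and Omd fell in both fits, with log2 changes of -0.75 ± 0.19 and -1.55 ± 0.39 with all libraries and -0.90 ± 0.16 and -1.76 ± 0.35 without the oviduct-rich one. Podn, a proteoglycan of that family, changed by a log2 of 0.90 ± 0.70 (adjusted p = 0.462) with all libraries and 2.42 ± 0.55 (0.00321) without the oviduct-rich one. Of 21 matrix turnover genes 4 rose and 4 fell without that library. The 4 falls became 2 without old replicates 2 or 5 or young replicates 1 or 4 and 7 without old replicate 1. Tgfb1, the growth factor of fibrosis, was at 129, 29.2, 123, 136 and 91.4 CPM and 152, 56.3, 108, 79.5 and 71.2 CPM and changed by a log2 of -0.12 ± 0.32 (adjusted p = 0.86) with all libraries and -0.36 ± 0.24 (0.281) without the oviduct-rich one, and Smad7, an inhibitor of its signal, fell, with a log2 change of -0.59 ± 0.16 (adjusted p = 0.0367) with all libraries and -0.66 ± 0.17 (0.0078) without the oviduct-rich one. Serpinh1, the chaperone of collagen, was among the 5 most abundant genes that fell, with a log2 change of -0.84 ± 0.20 (adjusted p = 0.0184) with all libraries and -0.95 ± 0.20 (0.00179) without the oviduct-rich one. Col11a1 lost its call with all libraries without young replicate 4 (adjusted p up to 0.0564). Fbln1 lost its call with all libraries without old replicates 2 or 3 or young replicate 1 (adjusted p up to 0.0853). Omd lost its call with all libraries without old replicate 3 or young replicate 1 (adjusted p up to 0.0663). Smad7 lost its call with all libraries without old replicates 2, 3 or 5 or young replicates 1 or 4 (adjusted p up to 0.111). Serpinh1 lost its call with all libraries without old replicate 3 or young replicate 4 (adjusted p up to 0.067).

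Epithelial genes rose mainly in the fit without the oviduct-rich library. Of 11 oviduct secretory genes 1 rose with all libraries and 9 without it, with medians of 1.17 and 3.46. Of 18 motile cilia genes 0 and then 16 rose, and 1 fell in both fits (medians 0.90 and 4.37). In all 9 and all 16 of these rises the oviduct-rich library was above the 4 other young ones. That library was set apart by Ovgp1, 1 of these oviduct genes, so its place here follows in part from the choice. Foxj1, the master factor of motile cilia, was at 39.4, 12.5, 3.36 and 4.83 CPM in the 4 other young libraries, 912 CPM in the oviduct-rich one and 353, 189, 112, 357 and 456 CPM in the old ones, with a log2 change of 0.58 ± 1.23 (adjusted p = 0.815) with all libraries and 4.30 ± 1.13 (0.00867) without the oviduct-rich one. Ovgp1 changed by a log2 of 0.98 ± 1.29 (adjusted p = 0.683) with all libraries and 5.86 ± 1.07 (0.000858) without the oviduct-rich one and the oviduct factor Pax8 by 1.10 ± 1.15 (adjusted p = 0.594) with all libraries and 5.09 ± 1.12 (0.00288) without the oviduct-rich one. The oviduct gene called in both fits was Cldn4, a tight junction protein, at 1.77, 11.6, 1.75 and 2.29 CPM, 14.5 CPM and 15.5, 274, 24.8, 27.9 and 14.7 CPM in the same order, with old replicate 2 high, and a log2 change of 3.62 ± 0.95 (adjusted p = 0.0293) with all libraries and 4.70 ± 1.09 (0.00413) without the oviduct-rich one. Krt14, a keratin of stratified epithelium, and Chi3l1 were high in old replicate 2 only, at 0.991, 106, 0.627, 0.372 and 0.821 CPM and 0.891, 102, 4.71, 0.186 and 1.51 CPM in the old libraries. The share of these transcripts that comes from oviduct attached to the ovary was not tested. Cldn4 lost its call with all libraries without old replicate 2 or young replicates 1, 4 or 5 (adjusted p up to 0.15).

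Ccno (chromosome 13, 112987802 to 112990778, plus strand) went the other way from the cilia genes. It encodes cyclin O, which multiciliated cells and oocytes both use. Ccno was at 23.7, 17.9, 30.1 and 29.3 CPM in the 4 other young libraries, 5.63 CPM in the oviduct-rich one and 2.13, 1.70, 1.07, 3.17 and 4.65 CPM in the old ones, so that all 5 young libraries exceeded all old ones. It fell, with a log2 change of -3.09 ± 0.40 (adjusted p = 0.00348) with all libraries and -3.35 ± 0.31 (2.24e-06) without the oviduct-rich one, and it was the 1 cilia gene called with all libraries.

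Of 12 ovarian surface epithelium genes 2 rose with all libraries and 9 without the oviduct-rich one, and in all 9 that library was above the 4 other young ones. Upk1b, a uroplakin of mesothelium, was at 12.6, 18.6, 7.15, 11.4 and 8.47 CPM in the young libraries and 49.4, 33.4, 38.3, 10.6 and 29.6 CPM in the old ones, with old replicate 4 inside the young range, with a log2 change of 1.44 ± 0.40 (adjusted p = 0.0379) with all libraries and 1.67 ± 0.43 (0.00732) without the oviduct-rich one. Gpm6a changed by a log2 of 1.40 ± 0.38 (adjusted p = 0.0332) with all libraries and 1.48 ± 0.41 (0.0117) without the oviduct-rich one. Keratin genes of this list are shared with oviduct epithelium: Krt19 was at 32.1, 161, 22.6 and 29.1 CPM, 1043 CPM and 287, 881, 393, 325 and 555 CPM in the same order. None of 14 smooth muscle genes was called in either fit by edgeR. Acta2 was at 955, 2980.0, 2451, 649 and 781 CPM in the young libraries, where replicates 2 and 3 were high, and at 949, 374, 617, 1553 and 787 CPM in the old ones. Of 18 endothelial genes 0 rose and 2 fell with all libraries (median 0.13). Without the oviduct-rich library 2 rose and 2 fell (median -0.01), where 15.9% of all tested genes rose and 11.9% fell. The 2 that fell with all libraries were Vegfa and Angpt2, with log2 changes of -0.60 ± 0.16 and -1.31 ± 0.38 with all libraries and -0.64 ± 0.17 and -1.59 ± 0.24 without the oviduct-rich one. Both code for vessel growth factors that follicle cells secrete. Nerve and Schwann cell genes did not fall as a list. Of 10 tested, 0 rose and 1 fell with all libraries (median 0.38). Without the oviduct-rich library 2 rose and 2 fell (median 0.75), and 8 of the 10 changes were positive. Th, which makes the precursor of catecholamines and was the nerve gene called in both fits, was at 1.52, 1.79, 3.40 and 4.45 CPM in the 4 other young libraries and at 0, 0.0892, 0.0627, 0 and 0.0684 CPM in the old ones, with a log2 change of -5.44 ± 0.81 (adjusted p = 0.00671) with all libraries and -5.80 ± 0.55 (2.27e-06) without the oviduct-rich one. The oviduct-rich library was at 0.0731 CPM, on the old side. Upk1b lost its call with all libraries without old replicates 1, 2, 3 or 5 or young replicates 1, 3, 4 or 5 (adjusted p up to 0.0987). Gpm6a lost its call with all libraries without old replicates 2, 3 or 5 or young replicates 1, 3, 4 or 5 (adjusted p up to 0.0906). Vegfa lost its call with all libraries without old replicates 1, 2, 3 or 5 or young replicates 1 or 4 (adjusted p up to 0.108). Vegfa also lost its call in the other fit without young replicate 4 (adjusted p up to 0.0614). Angpt2 lost its call with all libraries without old replicates 1, 2, 3 or 4 or young replicates 1, 3, 4 or 5 (adjusted p up to 0.139).

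Cdkn2a (chromosome 4, 89274473 to 89294619, minus strand), which encodes the senescence inhibitors p16INK4a and p19ARF, was at 3.55, 1.24, 1.79, 2.71 and 0.742 CPM in the young libraries and 6.34, 4.19, 9.35, 5.59 and 4.52 CPM in the old ones. All 5 old libraries lay above all 5 young ones, yet the test gave a log2 change of 1.58 ± 0.49 (adjusted p = 0.0568) with all libraries and 1.43 ± 0.51 (0.0451) without the oviduct-rich one. Cdkn1a was at 68.7, 85.3, 49.2, 83.9 and 31.7 CPM and 97.9, 43.4, 38.6, 48.2 and 45.6 CPM, which overlap. Of 15 secreted senescence factors 2 rose and 1 fell with all libraries, and 6 rose and 2 fell without the oviduct-rich one. The 2 rises became 0 without old replicate 3, and the 6 became 3 without old replicate 3 or young replicate 5. Those that rose in both fits, Ccl8 and Tnf, are also cytokines of immune cells. Ccl8 changed by a log2 of 4.70 ± 1.14 (adjusted p = 0.0207) with all libraries and 5.98 ± 1.33 (0.00319) without the oviduct-rich one. Tnf was at 0.634, 0.658, 0, 0.480 and 0.557 CPM in the young libraries and 1.49, 2.23, 9.47, 0.931 and 2.05 CPM in the old ones, without overlap, with a log2 change of 2.58 ± 0.70 (adjusted p = 0.0329) with all libraries and 2.66 ± 0.77 (0.0146) without the oviduct-rich one. Igf1, the growth factor that growth hormone induces and that granulosa cells also make, was at 53.7, 90.9, 55.4, 53.5 and 96.8 CPM in the young libraries and 35.9, 14.7, 35.6, 29.8 and 58.5 CPM in the old ones. It fell, with a log2 change of -1.01 ± 0.30 (adjusted p = 0.0489) with all libraries and -0.90 ± 0.31 (0.0371) without the oviduct-rich one. Ghr, the growth hormone receptor, changed by a log2 of 0.09 ± 0.22 (adjusted p = 0.841) with all libraries and 0.05 ± 0.24 (0.908) without the oviduct-rich one. Cdkn2a lost its call in the fit without the oviduct-rich library on also leaving out old replicates 1, 3 or 4 or young replicates 3, 4 or 5 (adjusted p up to 0.141). Ccl8 lost its call with all libraries without old replicate 3 or young replicates 1, 4 or 5 (adjusted p up to 0.0926). Tnf lost its call with all libraries without old replicate 3 or young replicates 1, 4 or 5 (adjusted p up to 0.15). Tnf also lost its call in the other fit without old replicate 3 or young replicate 4 (adjusted p up to 0.0578). Igf1 lost its call with all libraries without old replicates 1, 2, 3 or 4 or young replicates 1, 3, 4 or 5 (adjusted p up to 0.125). Igf1 also lost its call in the other fit without old replicates 1, 2, 3 or 4 or young replicates 1 or 5 (adjusted p up to 0.151).

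Several chaperones of the cytosol were lower in old ovaries by small amounts that separated the groups. Of 23 tested genes of chaperones and the unfolded protein response, 4 fell and 1 rose with all libraries, and 6 fell and 2 rose without the oviduct-rich one. The 4 falls with all libraries became 1 without old replicate 3 or young replicate 4 and 2 without old replicates 1 or 2. Hspa8, the constitutive Hsp70, was at 1625, 1793, 1852, 2703 and 2141 CPM in the young libraries and 1531, 1324, 1516, 1290.0 and 1409 CPM in the old ones. Dnajb1, its co-chaperone, was at 58.3, 110.1, 69.7, 110.3 and 60.4 CPM and 41.8, 50.0, 33.2, 50.1 and 49.5 CPM, and Hsp90ab1 at 2395, 2611, 3091, 2892 and 2526 CPM and 2246, 2333, 1810.0, 2016 and 2137 CPM. In all 3 genes every young library, the oviduct-rich one included, exceeded every old one. Their log2 changes were -0.52 ± 0.13 (adjusted p = 0.0225) with all libraries and -0.56 ± 0.14 (0.00558) without the oviduct-rich one for Hspa8, -0.87 ± 0.18 (adjusted p = 0.0117) with all libraries and -0.74 ± 0.18 (0.00496) without the oviduct-rich one for Dnajb1 and -0.36 ± 0.11 (adjusted p = 0.046) with all libraries and -0.37 ± 0.12 (0.0249) without the oviduct-rich one for Hsp90ab1. Hspa1a, the heat-inducible Hsp70, fell, with a log2 change of -1.74 ± 0.44 (adjusted p = 0.0243) with all libraries and -1.68 ± 0.46 (0.0111) without the oviduct-rich one. Atf3, a stress-induced factor, rose by a log2 of 1.23 ± 0.34 (adjusted p = 0.0349) with all libraries and 1.36 ± 0.37 (0.00953) without the oviduct-rich one. None of 30 ribosomal protein genes and none of 28 genes of oxidative phosphorylation changed with all libraries by edgeR. Without the oviduct-rich library 1 and 2 fell. With 1 more library left out of that fit, the falls ran from 0 to 11 and from 1 to 7, so these low counts are not stable. The summed level of the ribosomal protein genes was 44800 CPM in young replicate 3, the shallow library, and 18800 to 24200 CPM in the others. The 29 antioxidant genes gave 0 calls with all libraries, and 4 higher and 2 lower without it, of which the 4 became 2 without young replicate 5 and 7 without young replicate 3. Hspa8 lost its call with all libraries without old replicates 2 or 3 or young replicate 4 (adjusted p up to 0.0614). Hsp90ab1 lost its call with all libraries without old replicates 1, 2, 3, 4 or 5 or young replicates 1, 3 or 4 (adjusted p up to 0.177). Hsp90ab1 also lost its call in the other fit without old replicate 3 or young replicate 4 (adjusted p up to 0.0714). Hspa1a lost its call with all libraries without old replicates 1 or 3 or young replicate 4 (adjusted p up to 0.079). Hspa1a also lost its call in the other fit without young replicate 4 (adjusted p up to 0.0787). Atf3 lost its call with all libraries without old replicates 1, 4 or 5 or young replicates 1, 3, 4 or 5 (adjusted p up to 0.0891).

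Of 21 sex steroid and nuclear receptor genes, 1 rose and 2 fell with all libraries, and 4 rose and 5 fell without the oviduct-rich one. Esr1 and Pgr, the estrogen receptor alpha and progesterone receptor genes, are expressed in oviduct and stroma. Esr1 was at 30.6, 18.8, 32.5 and 37.5 CPM in the 4 other young libraries, 167 CPM in the oviduct-rich one and 94.7, 160.5, 200.2, 89.8 and 198 CPM in the old ones, with a log2 change of 1.35 ± 0.58 (adjusted p = 0.167) with all libraries and 2.27 ± 0.51 (0.00314) without the oviduct-rich one. Pgr changed by a log2 of 1.18 ± 0.99 (adjusted p = 0.501) with all libraries and 3.41 ± 0.99 (0.0162) without the oviduct-rich one. Vdr, the vitamin D receptor, rose in both fits, by a log2 of 0.99 ± 0.30 (adjusted p = 0.0498) with all libraries and 1.25 ± 0.29 (0.00401) without the oviduct-rich one, at 13.1, 19.7, 8.94, 9.82 and 8.29 CPM in the young libraries and 30.9, 25.2, 23.1, 20.5 and 20.7 CPM in the old ones, without overlap. Pparg, a lipid-sensing receptor of granulosa and fat cells, fell, with a log2 change of -1.18 ± 0.34 (adjusted p = 0.0446) with all libraries and -1.40 ± 0.31 (0.00262) without the oviduct-rich one. Of 20 cholesterol genes 6 fell and 1 rose without the oviduct-rich library, among them Insig1, a brake on cholesterol synthesis, with a log2 change of -0.78 ± 0.29 (adjusted p = 0.109) with all libraries and -0.99 ± 0.24 (0.00493) without the oviduct-rich one. The 6 became 2 without old replicate 5 or young replicate 5 and 3 without old replicate 2. Of 17 clock genes 1 rose in both fits, the repressor Bhlhe41, with a log2 change of 1.22 ± 0.30 (adjusted p = 0.0214) with all libraries and 1.41 ± 0.30 (0.00233) without the oviduct-rich one. The abundant nuclear RNA Neat1 rose by a log2 of 0.94 ± 0.22 (adjusted p = 0.0169) with all libraries and 0.89 ± 0.23 (0.00837) without the oviduct-rich one, at 1047, 606, 354, 691 and 756 CPM in the young libraries and 1368, 1869, 964, 1350.0 and 1074 CPM in the old ones, where 4 of 5 old libraries exceeded all the young ones. Tubb5, a tubulin of dividing cells, fell, with a log2 change of -0.73 ± 0.17 (adjusted p = 0.0173) with all libraries and -0.88 ± 0.14 (0.000259) without the oviduct-rich one. Pgr lost its call in the fit without the oviduct-rich library on also leaving out young replicate 4 (adjusted p up to 0.0547). Vdr and Pparg lost their calls with all libraries without old replicates 1, 2, 3, 4 or 5 or young replicates 1, 3, 4 or 5 (adjusted p up to 0.147 and 0.106). Bhlhe41 lost its call with all libraries without old replicate 3 or young replicates 4 or 5 (adjusted p up to 0.0674).

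The age response of normal ovaries was tested against that of dwarf ovaries as a difference of log2 changes. By edgeR 0 of 16099 genes differed with all libraries (0%, 1127 at an unadjusted p under 0.05), 17 with DESeq2 and 9 with limma voom. Without the oviduct-rich library 1 gene differed (0.00621%, 2339 at an unadjusted p under 0.05), 303 with DESeq2 and 114 with voom. The 1 gene was Ces1d (chromosome 8, 93166072 to 93197804, minus strand), a carboxylesterase that splits lipids. It was at 10.0, 13.4, 14.1 and 5.01 CPM in the 4 other young libraries and 73.9, 88.3, 98.0, 66.8 and 72.4 CPM in the old ones, without overlap, but at 157 CPM in the oviduct-rich library, above them all. Without the oviduct-rich library its age response was 2.96 ± 0.25 in normal ovaries. It differed from that of dwarf ovaries by 2.21 ± 0.31 (adjusted p = 0.0174), against 0.21 ± 0.87 with all libraries (adjusted p = 0.993). The dwarf response of 0.75 ± 0.62 is from the fit with all libraries, so its SE rests on another estimate of spread. Tk2, a mitochondrial thymidine kinase, had the smallest p of this difference with all libraries, 0.74 ± 0.15 (adjusted p = 0.533), and all 5 old normal libraries lay above the 5 young ones. For Gdf9 the difference was -1.46 ± 0.42 without the oviduct-rich library (adjusted p = 0.18), for Amh -1.97 ± 0.50 (adjusted p = 0.16), for Bub1b -0.44 ± 0.35 (adjusted p = 0.608) and for Blk 4.57 ± 1.36 (adjusted p = 0.186). With 0 and 1 genes called in all by edgeR, no member of the oocyte, mitosis or B cell lists was called in either fit. That does not show that their age responses were alike in normal and dwarf ovaries.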

How the data were processed

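The authors deposited 1 file of raw read counts per gene for each of the 20 libraries, with 23457 genes and 5 summary rows. Per the labels' protocols, RNA was extracted from flash-frozen ovaries with Trizol and its polyadenylated fraction was sequenced. Tools listed in the submitters' processing notes are TopHat2 2.0.10, TopHat and Bowtie2, HTSeq, edgeR and DESeq, with build mm10. What each did, whether counting used strand, and the annotation release are not given in these sources, so reads of overlapping or near-identical genes cannot be told apart. The summary rows (9.84 to 17.6% of each file) entered neither library sizes nor tests, and 0 sample columns were unused.

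The deposited counts were tested with edgeR 4.0.16 (R 4.3.3). Genes passing filterByExpr (minimum count 10, minimum total 15) were scaled by TMM and fitted with a robust quasi-likelihood model holding 1 mean per group, first on the 20 libraries and again on the 19 left without the 6-month normal library with Ovgp1 above 1000 CPM. A gene was called where its p, adjusted by Benjamini-Hochberg across the 16099 genes tested, was under 0.05. The test was checked on simulated counts. It recovered 34% of 2-fold and 76% of 4-fold changes with all libraries, and 28% and 73% without the oviduct-rich one. In each fit 7 unchanged genes were called. Simulated libraries shared the same mean for each unchanged gene, so an oviduct-rich library was not imitated. Their spread was the one estimated from all 20 libraries for both fits. The common dispersion, edgeR's measure of spread, was 0.165 with all libraries and 0.109 without the oviduct-rich one. The 28% and 73% therefore do not give the recovery of the smaller fit at its own spread. The labels name 5 mice a group and give nothing on dissection.

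The comparison, the 50 gene lists and the rule for named genes were chosen with earlier results of these data known, so counts over lists are descriptions. The rule takes a panel of ovarian and ageing genes, the 10 largest rises and falls called in both fits (mean of the higher age 5 CPM or more, no overlap once the oviduct-rich library is set aside), up to 3 called members of each list, the 5 most abundant called genes in each direction and the 10 smallest p of the difference from dwarf mice. Not every gene the rule takes is printed, and some items are not reported here. Mmp12, Igj, Hdc, Podn, Gpatch4, Slitrk3 and Twist2 were named after their values were seen. Alternatives were RLE scaling, no filter on low counts, DESeq2 1.42.0, voom with quality weights in limma 3.58.1, a replicate block, normal libraries only, and leaving out single libraries or libraries by title number. Added after the data were seen were an oviduct score as a covariate, leaving out 3 libraries in doubt or a dwarf library, and ratios to Nr5a1 and Amhr2. Gene positions are from the annotation deposited with the series (mm10), and promoter letters from RefSeq (GRCm38.p6), with 11717 of the tested genes matched by symbol. Figures were drawn in matplotlib 3.10.9.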

Additional observations from a re-analysis of the deposited data

Results flagged for a closer look

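In groups of 5 libraries, a list's mean log2(CPM + 0.5) was set apart when its gap to the nearest library exceeded 0.71 of the group's range. Over 50 lists and both groups this marked 16 of 100, and chance marks about 1 in 20. Each value below is the level of the library that stands apart.

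The oviduct-rich young library stood below the 4 other young ones in 6 ovarian and dividing-cell lists: corpus luteum genes at 3.47 (nearest 7.37), egg and early embryo factors at -0.0573 (nearest 3.43), the maternal complex at 1.00 (nearest 4.15), mitosis genes at 2.00 (nearest 4.05), oocyte zona and growth factors at 0.454 (nearest 3.98), and theca genes at 3.98 (nearest 7.20). It stood above them in motile cilia genes at 6.06 (nearest 2.57) and in surface epithelium genes at 5.93 (nearest 4.53).

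Young replicate 3, the shallowest library, was highest in antioxidant genes at 7.03 (nearest 6.49) and in subunits of oxidative phosphorylation at 7.60 (nearest 6.80). Young replicate 5 was lowest in cell cycle inhibitors at 4.40 (nearest 4.80), and young replicate 1 lowest in nerve and Schwann cell genes at 2.21 (nearest 2.49). Old replicate 3 was highest in B and plasma cell genes at 6.46 (nearest 2.75) and in lymphoid chemokines at 5.58 (nearest 2.30). Old replicate 1 was highest in cell cycle inhibitors at 5.09 (nearest 4.86), and old replicate 2 lowest in small leucine-rich proteoglycans at 5.05 (nearest 5.44).

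Ces1d was the 1 gene whose age response differed between normal and dwarf ovaries by edgeR, with a difference of log2 changes of 2.21 ± 0.31 (adjusted p = 0.0174), in the fit without the oviduct-rich library.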

How the results depend on the processing

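No called gene printed above changed direction when 1 library was left out. Uncalled genes that did with all libraries were Cyp19a1 (-2.26 to 1.04), Lhcgr (-0.75 to 0.23), Akr1c18 (-2.42 to 0.37), Kitl, Kit, Tgfb1, Ghr and Slitrk3, and in the other fit Cyp19a1, Kitl, Kit, Foxo3, Cdkn1a, Acta2, Ghr and Slitrk3. With all libraries, the 419 genes higher and 667 lower became 738 and 1028 with DESeq2 and 2055 and 1748 with voom. They became 0 and 0 with normal libraries only by edgeR (2111 at an unadjusted p under 0.05), 31 and 162 without the libraries with title numbers 21 to 23, 0 and 3 with the oviduct score as covariate, and 2730 and 2084 without young replicates 2 and 3 and old replicate 3. The cause of these shifts was not tested. Leaving out 1 library at a time gave 102 to 2556 higher and 340 to 1918 lower. Both maxima came without the oviduct-rich library, the minima without young replicate 4 (102 higher) and old replicate 3 (340 lower). Other counts shifted by over 1.5 times were 145 higher without old replicate 3, 221 higher and 395 lower without young replicate 1, 347 lower without young replicate 4, 204 higher without young replicate 5 and 415 lower without old replicate 2. Without the oviduct-rich library, the 2556 higher and 1918 lower were 1797 to 2817 and 1431 to 1997 with 1 more library left out, and 798 fell with normal libraries only. The difference from dwarf mice (0 genes with all libraries, 1 without the oviduct-rich one) was 17 and 303 with DESeq2, 9 and 114 with voom, and 204 without the 3 libraries with all others kept. It was 1 (Fgd5) with the oviduct score, 2 with RLE scaling and 4 without the count filter in the smaller fit, and 0 to 1 and 1 to 42 with 1 library left out. With a replicate block the counts were 538 and 580 with all libraries, 2010 and 1327 without the oviduct-rich one, and 0 for the difference in both fits. Same-numbered libraries did not regularly deviate together (correlations of 0.334, 0.193, -0.0988, -0.0721 and -0.0574), and only replicate 1 correlated best with its own number. These few correlations cannot settle whether the numbers mark a batch or a pairing, and the numbers are used here only to name samples. Depth limits young replicate 3 most, with 1365640 counts.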
